A study of Mus musculus with 12 samples.

Results

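Pou5f1, Sox2 and Nanog, the 3 genes that encode the core pluripotency transcription factors, were followed on 12 mouse arrays in 4 groups of 3, out of 19938 genes measured. They were chosen by name. Each had 1 probe set that the gene table assigns to it alone and none that it shares with another gene, so the brightest probe set and every probe set are the same measurement for these genes. The ESC arrays came from V6.5, a single embryonic stem cell line, grown in medium with 15% fetal bovine serum and LIF at 1000 IU/ml. The null_EB arrays came from embryoid bodies, which are floating cell aggregates. Per the labels these appeared 24 to 36 h after lung endothelial cells without CD47, passaged for 6 months, were placed in a basal medium free of serum. The null_EC group held CD47 null lung endothelial cells of the C57Bl/6 background in EGM2, an endothelial growth medium. WT_EC were wild-type C57Bl/6 lung endothelial cells in the same medium. Medium, serum, growth form and, as far as stated, passage therefore differed together with the cell type. CD47 is a cell surface receptor for thrombospondin-1 and SIRP alpha, and the series asks how its loss relates to self-renewal and reprogramming.

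Pou5f1 encodes OCT4, a POU domain protein that binds octamer DNA, and Sox2 encodes an HMG box protein that binds beside it on many enhancers. Nanog encodes a homeodomain protein that stabilises the undifferentiated state. In mouse embryonic stem cells the 3 factors activate their own genes and one another's, share many target genes and are turned off as cells differentiate, and adult endothelial cells do not normally use them.

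Pou5f1 lies at chr17:35506032-35510777, Sox2 at chr3:34649995-34652461 and Nanog at chr6:122707489-122714633 in GRCm38.p6, all on the + strand and all protein coding. The 250 bases before the start of each gene, from RefSeq on GRCm38.p6, are shown because the 3 factors are known to bind control elements of their own genes. Capitals mark letters that matched one of the motifs searched on both strands: the octamer ATGCAAAN, the SOX letters CATTGT, both joined as CATTGTNATGCAAAN, and the GC box GGGCGG.
Pou5f1, chr17:35505782-35506031: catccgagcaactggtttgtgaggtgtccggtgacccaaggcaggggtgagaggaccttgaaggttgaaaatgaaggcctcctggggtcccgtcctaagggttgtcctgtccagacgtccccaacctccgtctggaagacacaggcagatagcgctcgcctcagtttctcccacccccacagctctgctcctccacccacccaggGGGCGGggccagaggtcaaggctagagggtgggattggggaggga
Sox2, chr3:34649745-34649994: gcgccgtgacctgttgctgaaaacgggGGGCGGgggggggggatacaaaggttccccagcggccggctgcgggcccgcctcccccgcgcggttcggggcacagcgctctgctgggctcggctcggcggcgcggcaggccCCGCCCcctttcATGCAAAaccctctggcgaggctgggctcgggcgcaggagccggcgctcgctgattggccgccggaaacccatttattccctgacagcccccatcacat
Nanog, chr6:122707239-122707488: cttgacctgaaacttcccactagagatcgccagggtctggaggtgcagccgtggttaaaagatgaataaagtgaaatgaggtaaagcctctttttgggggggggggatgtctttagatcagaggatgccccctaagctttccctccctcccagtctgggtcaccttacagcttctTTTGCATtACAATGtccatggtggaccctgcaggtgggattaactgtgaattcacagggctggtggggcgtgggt
In Nanog the joined letters ran on the reverse strand at positions -76 to -62 from the start, with the octamer at -76 to -69 and the SOX letters inside the same match at -67 to -62. This spelling is that of the composite element known from the mouse Nanog promoter. Among 32851 windows of 300 bases, each reaching 250 bases before and 50 after a start, 2 held it, or 0.00609%. Both are overlapping Nanog windows that hold the same site, chr6:122707413-122707427, so 1 gene had a match. Since the joined letters spell that known element, their match in Nanog could be foreseen. In Sox2 an octamer ran from -99 to -92, and GC boxes stood at -223 to -218 and -111 to -106. In Pou5f1 a GC box stood at -45 to -40, and neither the octamer nor the SOX letters occurred in the window. A second Pou5f1 window, at another start, held the SOX letters at -158 to -153. Control elements outside the windows were not searched, so a missing match says nothing about them. The octamer was found in 4.61% of all windows, the SOX letters in 12.6% and the GC box in 35.7%. These matches describe letters only, and no binding was measured here.

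The values are log2 signals after RMA, a method that corrects background and makes the arrays' distributions equal. No detection calls were used, and a value below 8.01, the median of all tested values, is called low signal. Arrays of one group correlated at 0.9937 to 0.9962 in ESC, 0.9942 to 0.9964 in null_EB and 0.9963 to 0.9969 in null_EC, against 0.9544 to 0.9677 in WT_EC. The median SD per gene was 0.213 in WT_EC and between 0.0652 and 0.0847 in the other groups. Cd47 signals lay between 10.89 and 10.99 in null_EB and between 10.98 and 11.11 in null_EC, against 11.29 to 12.59 in WT_EC. In ESC, which is not a CD47 null group, they lay between 10.96 and 11.33 and were not called different from null_EB (limma adjusted p = 0.499) or null_EC (0.691), and where the Cd47 probes lie relative to the deletion is not given in the sources used here. All 9 measured embryonic stem cell markers other than the core factors were called higher in ESC than in each other group, against 21.8% to 25.4% of all genes. These 9 had low signal in all 3 of those groups. Of 10 endothelial markers, 9 had low signal by group mean in null_EB and 8 in null_EC, against 5 in WT_EC and 6 in ESC. The WT_EC arrays were not uniform, and their medians of these markers ran from 7.08 to 8.74. The lowest of them lay below the lowest median in null_EB, 7.13, and in null_EC, 7.29. In null_EC against WT_EC, limma called 1 of the 10 higher and 1 lower. Kdr, an endothelial marker, lay between 10.52 and 10.83 in null_EC and between 8.51 and 9.35 in WT_EC. The median of 8 mesothelial markers lay between 11.28 and 11.44 on the null_EB arrays and between 12.13 and 12.21 on the null_EC arrays, against 10.78 to 12.12 on the WT_EC arrays. The median of 10 immune cell markers reached 10.30 on 1 WT_EC array and 6.98 at most on the null_EC arrays. The median of 10 fibroblast markers lay between 10.07 and 10.19 on the ESC arrays. It lay between 9.90 and 10.145 in null_EB, 10.24 and 10.89 in null_EC and 10.56 and 11.89 in WT_EC. Of these 10, 2 had low signal in ESC, 4 in null_EB, 4 in null_EC and 0 in WT_EC. The source of the fibroblast marker signal in ESC was not tested. The labels do not say whether the replicates were separate cultures or animals, so the p-values measure the spread between these samples, which may be technical.

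All 3 core factors were bright in the stem cell line and had low signal on every one of the 9 other arrays. Pou5f1 read 11.94, 12.01 and 11.96 on the ESC arrays. It read 5.93, 6.14 and 6.08 in null_EB, 6.14, 6.34 and 6.25 in null_EC and 6.72, 6.15 and 6.13 in WT_EC. The ESC arrays stood apart from all others, and the remaining groups lay close together, with WT_EC 1 the highest of the 9. The lowest ESC array exceeded the highest other array by 5.22 log2 units, or 37.2-fold. Pou5f1 was higher in ESC than in null_EB by 5.92 (SE 0.139; 95% interval 5.61 to 6.22; limma adjusted p = 1.93e-10), a 60.4-fold difference. The difference was 5.72 against null_EC and 5.63 against WT_EC.

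Sox2, the partner of OCT4, read 10.98, 11.35 and 10.75 on the ESC arrays. It read 6.22, 6.26 and 6.28 in null_EB, 6.21, 6.43 and 6.42 in null_EC and 6.24, 6.06 and 6.07 in WT_EC. The 3 ESC arrays were again clear of the rest, but they spread more for Sox2, with an SD of 0.301, than for Pou5f1 at 0.0394 or Nanog at 0.0347. Sox2 was higher in ESC than in null_EB by 4.77 (SE 0.132; 95% interval 4.48 to 5.06; limma adjusted p = 6.23e-10), or 27.3-fold. The difference was 4.67 against null_EC and 4.90 against WT_EC. The gap between the lowest ESC array and the highest other array, here null_EC 2, was 4.32 log2 units or 20.0-fold.

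Nanog, the homeodomain factor, read 12.54, 12.60 and 12.60 on the ESC arrays. It read 6.65, 6.77 and 6.74 in null_EB, 7.06, 6.98 and 6.93 in null_EC and 7.12, 6.87 and 6.79 in WT_EC. The ESC arrays were the only bright ones, and every null_EB array lay below every null_EC and WT_EC array. Nanog was higher in ESC than in null_EB by 5.86 (SE 0.0873; 95% interval 5.67 to 6.05; limma adjusted p = 6.85e-12), or 58.0-fold. It was higher by 5.60 than in null_EC and by 5.66 than in WT_EC, and the gap from the lowest ESC array to the highest other array, WT_EC 1, was 5.43 or 43.0-fold.

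All 9 of these differences were called and stayed called in each of the 19 or 20 alternative fits run for them. Of all genes, 44.8% were called in ESC against null_EB (21.8% higher and 23% lower), 47.9% against null_EC (22.9% and 25.1%) and 47.1% against WT_EC (25.4% and 21.7%). The 3 ESC arrays lay wholly above the other group for 29.6%, 30.5% and 25.5% of all genes in the same order of comparisons. In these bulk samples fewer cells with a transcript and less of it in each cell cannot be told apart.

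**Figure D1:**
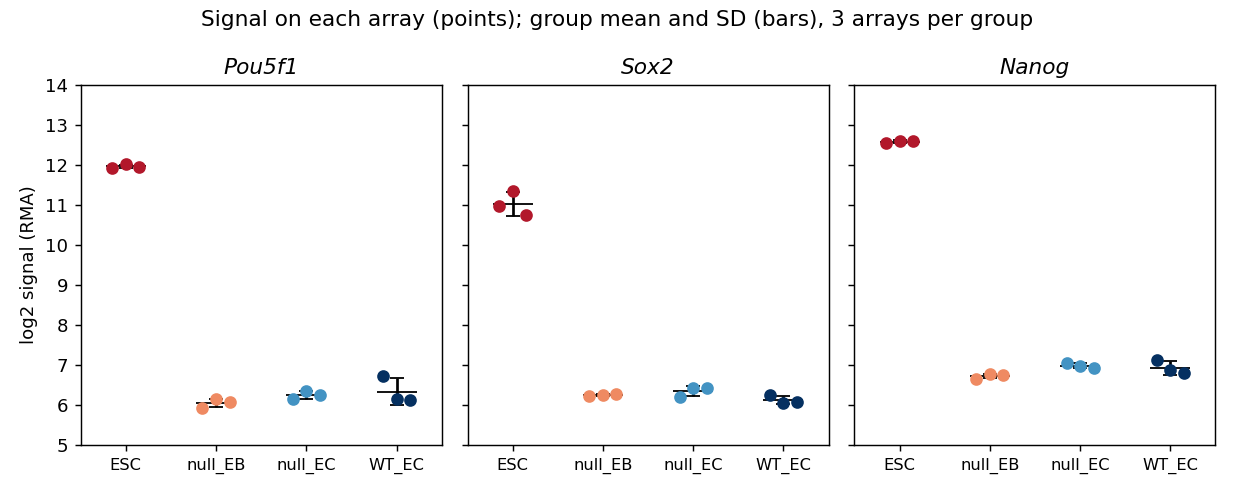
Log2 signal of Pou5f1, Sox2 and Nanog on each of the 12 arrays by group, with 1 point per array and bars for the mean and SD of 3 arrays. The ESC arrays lie between 10.75 and 12.60, and every other array lies between 5.93 and 7.12.

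The comparison of embryoid bodies with the cells they came from asks whether the core factors were switched on in the aggregates. None of the 3 was called higher in null_EB. The mean of Pou5f1 was 6.05 ± 0.108 in null_EB, against 6.25 ± 0.101 in null_EC (SD, n = 3 each), a difference of -0.19 with a 95% interval of -0.50 to 0.11 (limma adjusted p = 0.585). For Sox2 the means were 6.25 ± 0.0343 in null_EB and 6.35 ± 0.122 in null_EC, a difference of -0.10 with an interval of -0.39 to 0.19 (limma adjusted p = 0.838). The Sox2 arrays of the 2 groups overlapped, while those of Pou5f1 did not, with null_EB 2 and null_EC 1 both at 6.14 after rounding.

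Nanog averaged 6.72 ± 0.0598 in null_EB and 6.99 ± 0.0651 in null_EC, a difference of -0.26 with an interval of -0.46 to -0.07. Its unadjusted p was 0.01196 and its limma adjusted p 0.123, so it was not called, and the 2 groups did not overlap. With array weights the difference was -0.22 (adjusted p = 0.00117), and it was also called with the 6 arrays alone, without the 3 WT_EC arrays and without WT_EC 1 (adjusted p = 0.0161). Over all genes, 5.4% were called in this comparison (2.9% higher and 2.5% lower) and 19.2% had null_EB wholly below null_EC. Among the 8483 genes whose signal was low on all 9 arrays outside ESC, as for these factors, 11.7% had null_EB wholly below null_EC and the median difference was -0.02.

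The intervals bound what an increase in the embryoid bodies could have been. Against null_EC they allow at most 1.08-fold for Pou5f1, 1.14-fold for Sox2 and 0.952-fold for Nanog, on the scale of these signals and under the test's assumptions. On the line from the null_EC mean to the ESC mean, null_EB lay at -3.39% for Pou5f1, -2.13% for Sox2 and -4.71% for Nanog. From the WT_EC mean it lay at -5.05%, 2.64% and -3.55% for the same genes. RMA compresses low signals, so a fold at this level may understate the change in RNA.

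Against the wild-type cells the picture was similar. Pou5f1 differed by -0.28 between null_EB and WT_EC (95% interval -0.59 to 0.02; limma adjusted p = 0.196) and Sox2 by 0.13 (-0.16 to 0.42; adjusted p = 0.568). Nanog differed by -0.20 (-0.39 to -0.01), with an unadjusted p of 0.04235 and an adjusted p of 0.145. The Nanog arrays of null_EB and WT_EC did not overlap, as was the case, with null_EB lower, for 9.94% of all genes. Of all genes, 18.5% were called in null_EB against WT_EC, 12.3% higher and 6.19% lower.

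Between null_EC and WT_EC, the comparison of the endothelial cells without CD47 with their wild-type counterpart, none of the 3 was called, against 13.1% of all genes, 8.12% higher and 5% lower. The differences were -0.09 for Pou5f1 (95% interval -0.40 to 0.22; limma adjusted p = 0.757), 0.23 for Sox2 (-0.06 to 0.52; adjusted p = 0.313) and 0.06 for Nanog (-0.13 to 0.26; adjusted p = 0.725). The groups overlapped for each, and none had an unadjusted p under 0.05. The sign for Pou5f1 rests on WT_EC 1: without that array it was 0.10, and without WT_EC 3 the Nanog difference was -0.0044.

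The order of group means for Pou5f1 was ESC, WT_EC, null_EC and null_EB, for Sox2 ESC, null_EC, null_EB and WT_EC, and for Nanog ESC, null_EC, WT_EC and null_EB. Only the step below ESC was called. WT_EC 1 gave the highest of the 9 signals for Pou5f1 and Nanog. It was also the highest of the 9 for 3064 of the 8483 genes of low signal, or 36.1%, and its median over them was 6.56, with the other 8 arrays between 6.39 and 6.50. Without WT_EC 1 the Pou5f1 difference between null_EB and WT_EC was -0.09 and that of Nanog -0.11.

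**Figure D2:**
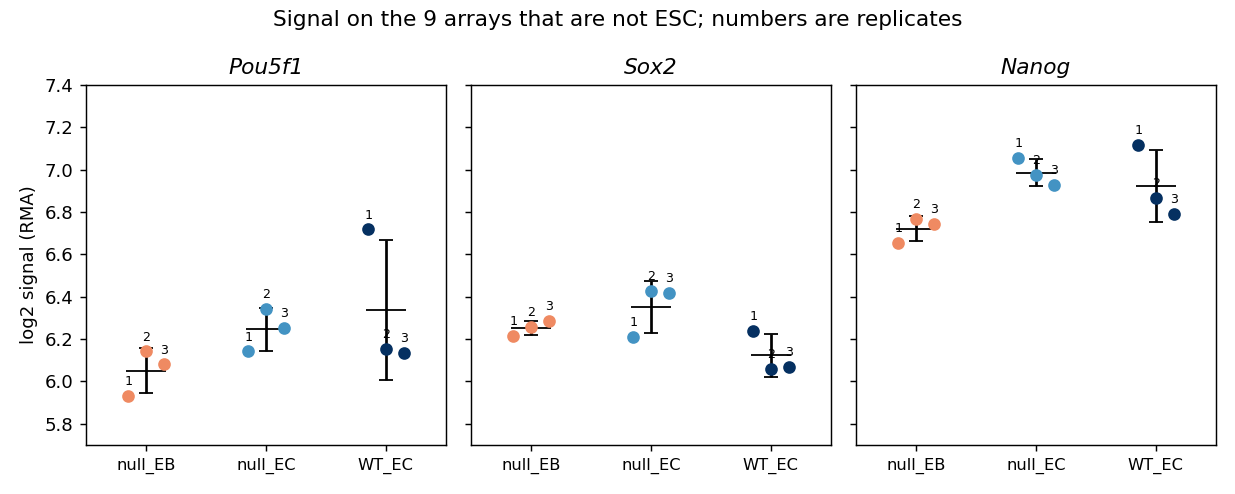
Log2 signal of the 3 genes on the 9 arrays outside ESC, with 1 numbered point per array and bars for the mean and SD of 3 arrays, on an enlarged axis. Each gene's 9 arrays span 0.785 log2 units for Pou5f1, 0.368 for Sox2 and 0.461 for Nanog.

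**Figure D3:**
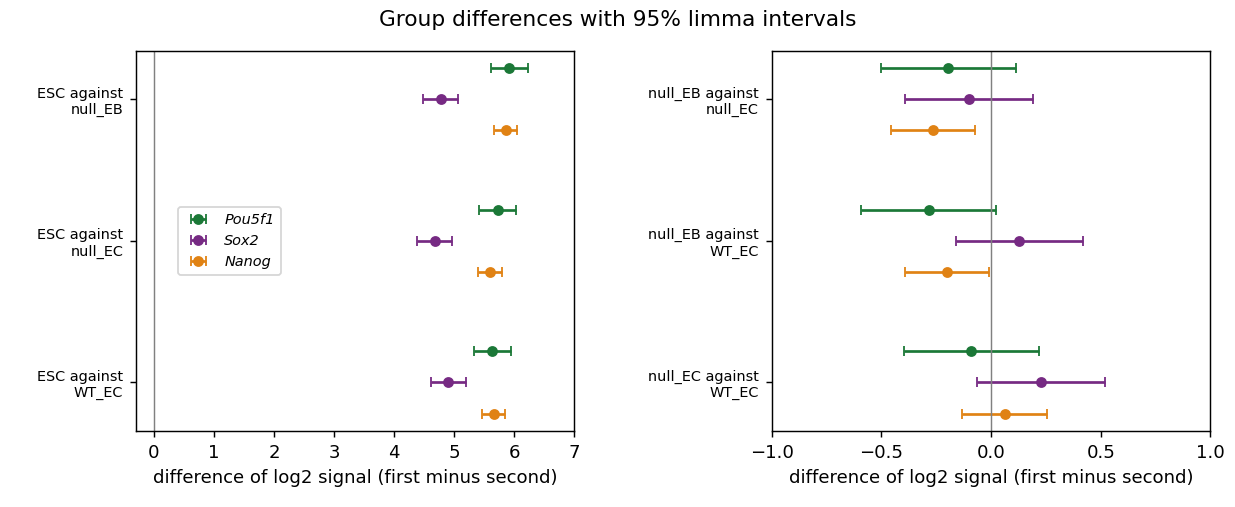
Group differences of log2 signal, first group minus second, with 95% limma intervals. ESC against each other group is at left, and the other groups among themselves are at right on an enlarged axis that covers a smaller range. The intervals at left lie between 4.38 and 6.22, and of those at right only the Nanog intervals of null_EB against null_EC and against WT_EC exclude 0.

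The gene whose centred profile over the 12 arrays was most like that of Pou5f1 was Nanog, with a root mean square difference of 0.112 log2 units. This ordering left out 1698 genes with predicted or clone names or small RNAs. Then came Otx2, a homeobox factor of the primed state and forebrain, at 0.158, and Utf1, a chromatin factor of undifferentiated cells, at 0.211. Sycp3, a meiotic chromosome protein, followed at 0.219 and Tdrd12, a germ line protein, at 0.225. For Nanog the order was Otx2 at 0.108, Pou5f1 at 0.112, Sycp3 at 0.161, Dppa5a at 0.197 and Utf1 at 0.208.

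Sox2 was less close to either, at 0.474 from Pou5f1 and 0.441 from Nanog. Its nearest profiles were Esrp1, an epithelial splicing factor, at 0.172, Lrrc34 at 0.180, Nr0b1, a nuclear receptor of the stem cell network, at 0.183, Epp13 at 0.184 and Slc35f2 at 0.207. The measure mostly reflects the size of the step between ESC and the other groups, which was smaller for Sox2, and the 12 arrays are the same for every gene.

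Genes known as targets of the core factors in mouse embryonic stem cells were mostly bright in the stem cell line and, with few exceptions, of low signal elsewhere. All 18 that were measured were called higher in ESC against each other group, with a median difference of 3.89 against null_EB, where the median of all genes was -0.08. Of all genes, 21.8% were called higher in ESC than in null_EB, 22.9% than in null_EC and 25.4% than in WT_EC. Of these 18, 16 had low signal in null_EB, in null_EC and in WT_EC. In ESC 1 had a low mean, Dppa3, which read 7.87, 7.96 and 8.03. Tdgf1, the NODAL co-receptor Cripto, read 13.48, 13.30 and 13.50 in ESC and between 6.54 and 6.80 on the other arrays, a difference of 6.76 against null_EB (SE 0.0866; limma adjusted p = 2.61e-12).

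Epcam, an epithelial adhesion protein, was higher in ESC than in null_EB by 5.44, and Dppa5a, an RNA-binding protein of the early embryo, also by 5.44. Fbxo15, an F-box protein whose gene is a classic reporter of reprogramming, was higher by 5.42 in ESC than in WT_EC. The 3 ESC arrays of Fbxo15 lay between 10.07 and 10.26, and the WT_EC arrays between 4.72 and 4.75.

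Among null_EB, null_EC and WT_EC the only target called was Jam2, a junctional adhesion molecule that endothelial cells also express. Of all genes, 5.4% were called in null_EB against null_EC, 18.5% in null_EB against WT_EC and 13.1% in null_EC against WT_EC. Jam2 read 11.27, 11.25 and 11.26 in ESC. It read 9.92, 9.75 and 9.67 in null_EB, 8.95, 8.76 and 8.77 in null_EC and 11.16, 10.01 and 10.67 in WT_EC. Its groups formed separate steps outside ESC, lowest in null_EC. It was higher in null_EB than in null_EC by 0.95 (limma adjusted p = 0.0305), but without any 1 array of ESC, null_EB or null_EC the adjusted p was 0.0504 to 0.119. It was lower in null_EB than in WT_EC, with a difference of -0.84 (adjusted p = 0.0226) that was not called without null_EB 2, null_EB 3 or WT_EC 3. Nor was it called with the 6 arrays of these groups alone (limma adjusted p = 0.17). In null_EC it was lower than in WT_EC, with a difference of -1.79 (adjusted p = 0.000411). Without WT_EC 2, 4 targets rather than 1 were called lower in null_EB than in WT_EC, and 3 rather than 1 in null_EC.

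Transcription factors that work with the core circuit moved with it in the stem cell line, with named exceptions. Of 23 measured, 20 were called higher in ESC than in null_EB and 2 lower, with a median difference of 2.41. Against null_EC, 20 were higher and 1 lower, and against WT_EC, 19 and 1. The share of all genes called higher in ESC was 21.8% against null_EB, 22.9% against null_EC and 25.4% against WT_EC. Otx2 lay between 11.57 and 11.59 in ESC, against 5.85 to 6.02 in null_EB, a difference of 5.63 (SE 0.0769; limma adjusted p = 3.25e-12). Nr0b1 was higher than in null_EB by 4.65, and Sall4, a zinc finger partner of OCT4, by 3.82. Zfp42, the zinc finger factor REX1, was higher in ESC than in null_EC by 3.76.

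The partners lower in ESC than in null_EB were Myc, the growth factor-responsive oncogene, with a difference of -2.33, and Klf4, a Kruppel-like factor used in reprogramming, with -1.05. Klf4 read 10.52, 10.33 and 10.27 in null_EB, against 9.54, 9.20 and 9.59 in null_EC, and the groups did not overlap. Its difference there was 0.93 (limma adjusted p = 0.019), but leaving out any 1 array of these 2 groups ended the call (adjusted p = 0.0502 to 0.0936). So did shifting the arrays to equal housekeeping medians (limma adjusted p = 0.0961). Myc read 10.98, 10.79 and 10.83 in null_EB and 10.18, 10.02 and 10.14 in null_EC, a difference of 0.75 (adjusted p = 0.00503) that every alternative kept. Mycn, its paralog in embryonic cells, was lower in null_EB than in null_EC, with a difference of -0.55 (adjusted p = 0.0291). That call was lost without ESC 1, null_EB 2, null_EB 3, null_EC 1 or null_EC 3, and under the replicate block. The housekeeping shift ended it as well (limma adjusted p = 0.104). Among null_EB, null_EC and WT_EC, leaving out 1 array gave between 0 and 5 called partners in a direction, with 5 higher in null_EC than in WT_EC without WT_EC 2.

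Tfcp2l1, a target of LIF signalling that sustains naive cells, had signal outside the stem cells as well. It read 10.58, 10.66 and 10.56 in ESC, 9.47, 9.28 and 9.16 in null_EB, 9.94, 9.70 and 9.82 in null_EC and 7.45, 8.23 and 8.45 in WT_EC. Both CD47 null groups lay above all WT_EC arrays. It was higher in null_EB than in WT_EC by 1.26 (limma adjusted p = 0.00199; adjusted p = 0.0546 with the 6 arrays alone) and higher in null_EC than in WT_EC by 1.78 (adjusted p = 0.000291).

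**Figure D4:**
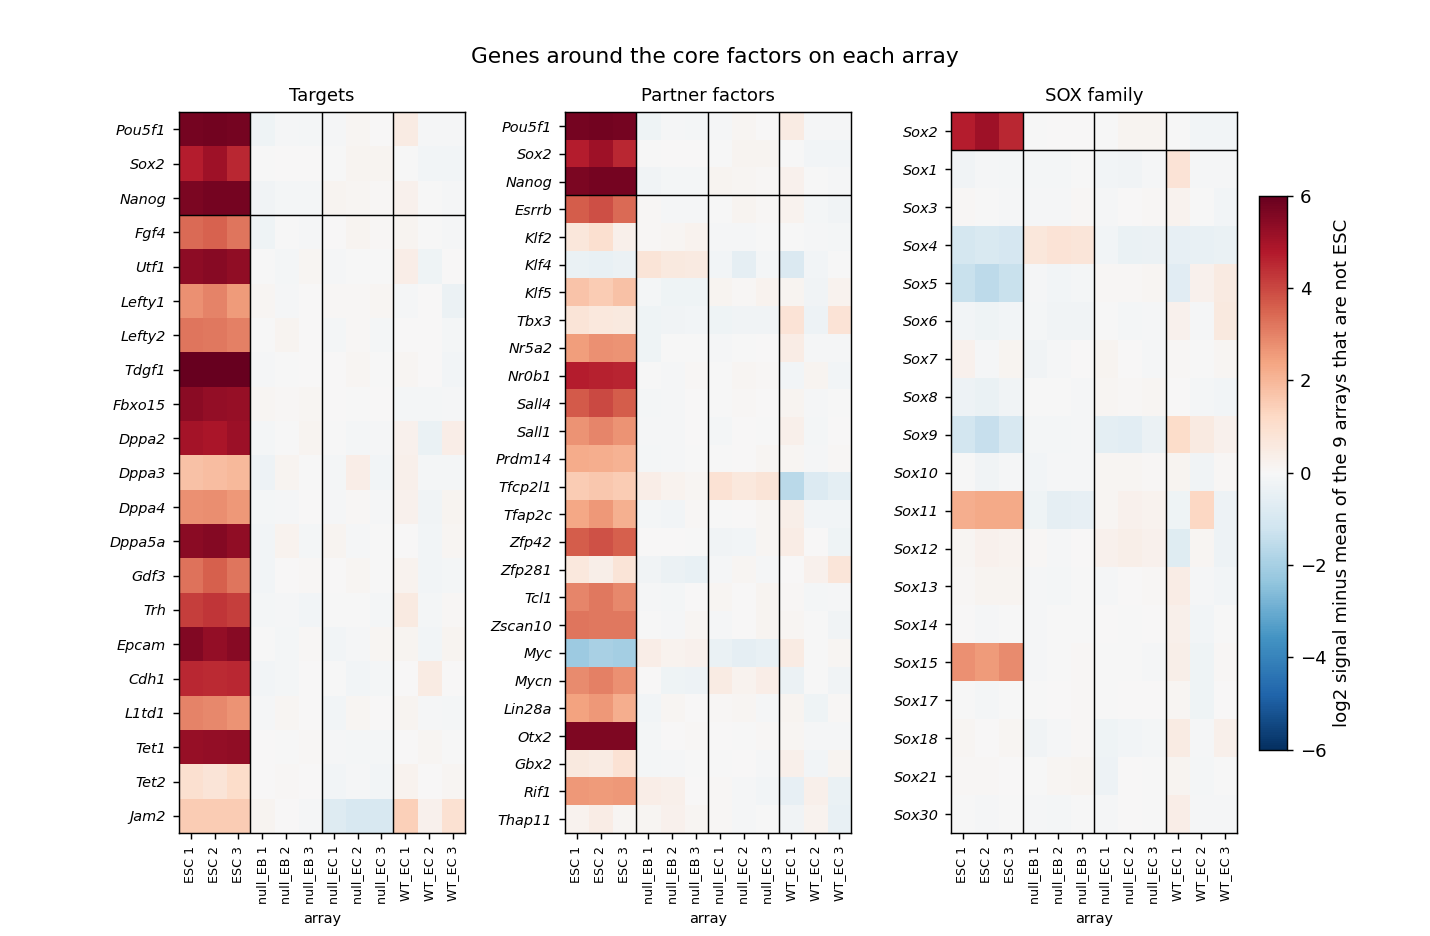
Log2 signal of the core factors with their targets, partner factors and the SOX family on each of the 12 arrays, coloured by the difference from the gene's mean over the 9 arrays outside ESC, on a scale that Tdgf1 exceeds. All 18 targets and 20 of 23 partners are called higher in ESC than in null_EB, against 21.8% of all genes.

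The relatives of the core factors did not share the pattern as families. Of 18 SOX genes other than Sox2, 2 were called higher in ESC than in null_EB and 4 lower, with a median difference of 0.01, where 44.8% of all genes were called. With array weights 6 were higher, and with the 6 arrays alone 4. Sox15, a SOX factor also found in mouse embryonic stem cells, was higher by 2.72 (limma adjusted p = 3.67e-08), and Sox11, a neural progenitor factor, by 2.67 (adjusted p = 4.6e-05). Sox4, a factor of progenitor and mesenchymal cells, was lower, with a difference of -1.76, as were Sox5, a cartilage and neural factor, at -1.30 and Sox9, a factor of cartilage and epithelial progenitors, at -1.04.

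Sox4 differed between the embryoid bodies and their source. It read 10.70, 10.83 and 10.74 in null_EB, 9.85, 9.59 and 9.67 in null_EC and 9.51, 9.58 and 9.59 in WT_EC, and null_EB stood above both. The difference was 1.06 log2 units against null_EC (SE 0.0817; limma adjusted p = 8.36e-05) and the ratio to WT_EC was 2.30-fold, a difference that limma called at an adjusted p of 1.48e-05. All alternatives kept both calls. It was the only SOX gene called in null_EB against null_EC, where 5.4% of all genes were called. Without WT_EC 1 a second was called higher, and without WT_EC 2 there was 1 called lower. Array weights called 3 higher and 5 lower, and the 6 arrays alone 2 and 4. The endothelial SOX factors Sox7, Sox17 and Sox18, chosen after their values were seen, lay between 6.44 and 8.15 on all 12 arrays.

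Of 10 POU genes other than Pou5f1, 2 were called higher in ESC than in null_EB and 2 lower, where 21.8% of all genes were higher and 23% lower. The increases were 0.35 for Pou2f3, a tuft cell factor, and 0.29 for Pou3f1, a neural and Schwann cell factor. With array weights 5 genes of the list were called higher, in a fit where the count over all genes rose from 8929 to 14866. Without ESC 2 only 1 gene of the list was called higher. With arrays shifted to equal housekeeping medians none was, and the differences were 0.15 for Pou2f3 (adjusted p = 0.316) and 0.086 for Pou3f1 (adjusted p = 0.448). Pou6f1 was lower, with a difference of -0.91 (limma adjusted p = 1.02e-05), and so was Pou5f2 at -0.66 (adjusted p = 0.000861). None of the 10 was called in null_EB against null_EC by limma, against 5.4% of all genes. None was called on leaving out any 1 array either, and 0 had an unadjusted p under 0.05. Array weights called 2 lower, in a fit where the count over all genes rose from 1077 to 8001.

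Repressors and silencers of the core genes were called in both directions. Of 13 measured, 5 were called higher and 5 lower in ESC than in null_EB, where 21.8% of all genes were higher and 23% lower. Dnmt3b, a DNA methyltransferase that sets new methylation in the early embryo, was higher by 2.98 (limma adjusted p = 3.28e-10). Dnmt1, the maintenance methyltransferase, was higher by 1.79, and Nr6a1, the germ cell nuclear factor that represses Pou5f1 during differentiation, by 1.72. Gata6, the primitive endoderm factor that opposes Nanog, read 8.74, 8.41 and 8.41 in ESC, against 12.50, 12.34 and 12.45 in null_EB. It was lower in ESC, with a difference of -3.91 (adjusted p = 8.02e-08). Mbd2, a methyl-CpG reader, and Nr2f2, the orphan receptor COUP-TFII, were lower too, with differences of -1.52 and -1.07. No member of this list was called in null_EB against null_EC by limma, against 5.4% of all genes. An unadjusted p under 0.05 was found for 2, and leaving out WT_EC 1 or WT_EC 2 gave 1 call each. Array weights called 5 higher and 2 lower, and the 6 arrays alone 3 and 1.

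Genes of the first lineages, trophectoderm and primitive endoderm, whose rise marks loss of the core factors in the embryo, were mixed. Of 20, 5 were called higher in ESC than in null_EB and 7 lower, against 44.8% of all genes called, and 8 were higher with array weights. Krt18, a simple epithelial keratin, was higher in ESC than in null_EC by 4.03. Against null_EB its partner Krt8 was higher by 1.85 and Lama1, a basement membrane laminin, by 2.05. Krt8 lost its call in 6 of 20 alternatives, and the count was 3 rather than 5 without ESC 1, ESC 3, null_EB 1 or null_EB 2. Gata4, a primitive endoderm and heart factor, was lower, with a difference of -1.98, and so was Foxa2, an endoderm factor, at -1.31. In null_EB against null_EC 0 of 20 were called by limma, against 5.4% of all genes, while the unadjusted p was under 0.05 for 6. Leaving out WT_EC 2 gave 1 higher and 3 lower, and without WT_EC 1 or WT_EC 3 there were 4 and 3 lower. Array weights gave 1 higher and 9 lower, and the 6 arrays alone 1 and 6. The largest difference of the 20 in this comparison was -2.22, for Krt7, which was not called. Krt7 read 8.47, 8.12 and 8.44 in null_EB and 10.58, 10.55 and 10.58 in null_EC, so the groups did not overlap. Its WT_EC arrays, which share the spread of the fit, ran from 8.81 to 12.09.

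Genes of the LIF, BMP and FGF pathways, which feed into the core circuit, were called in both directions. Of 21, 4 were higher and 8 lower in ESC than in null_EB, against 44.8% of all genes called. There were 2 higher with the housekeeping shift, 13 lower without WT_EC 2 and 15 lower with the 6 arrays alone. Etv5, an FGF-induced factor, was higher by 2.47, Id2, a BMP-induced inhibitor of helix-loop-helix factors, by 1.01 and Socs3, a feedback inhibitor of LIF signalling, by 0.72. Id2 was not called with the housekeeping shift (adjusted p = 0.0689) or without ESC 1, ESC 3, null_EB 2 or null_EB 3 (adjusted p = 0.0681 to 0.0912). Id3, another BMP target, was lower, with a difference of -1.57, as were Dusp6, a phosphatase that dampens FGF signalling, at -1.27 and Jak2, a cytokine receptor kinase, at -1.17.

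In null_EB against null_EC, Dusp6 read 11.26, 11.09 and 11.21 in null_EB and 10.28, 9.91 and 10.30 in null_EC, and the groups were well apart. Dusp6 was higher by 1.03 (limma adjusted p = 0.00159), a call that all alternatives kept. Id2 was lower, with a difference of -1.73 (adjusted p = 0.0129), and so were Id1 at -0.76 (adjusted p = 0.0235) and Stat3 at -0.26 (adjusted p = 0.0456). Stat3 was called in 8 of 20 alternatives. Of the 21 genes, limma called 1 higher and 3 lower, against 2.9% and 2.5% of all genes. An unadjusted p under 0.05 was found for 10. Array weights called 5 higher and 10 lower, and the 6 arrays alone 5 and 11. Leaving out 1 array gave 1 to 4 higher and 0 to 7 lower. The Id2 call was lost without null_EB 2, null_EB 3 or any null_EC array, and the Id1 call without any 1 array of either group. With the housekeeping shift Id1 was not called either (limma adjusted p = 0.12).

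The chromosome neighbours of the core genes, the 5 nearest tested genes on each side, were examined for shared change. Of 10 neighbours of Nanog, 5 were called higher in ESC than in null_EB and 1 lower, where 21.8% of all genes were higher and 23% lower. Rimklb, a peptide synthase, was higher by 5.19 at a distance of 220 kb, Slc2a3, a glucose transporter, by 3.50 at 13.2 kb and Gdf3, a TGF beta family ligand of the early embryo, by 3.37 at 97.4 kb. Dppa3, a factor of germ cells and the early embryo known as Stella, was higher by 1.88 at 77.2 kb. Gdf3 and Dppa3 are also in the target list, and the Nanog region is known as a cluster of genes active in stem cells. Foxj2, a forkhead factor, was lower, with a difference of -0.997.

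Slc2a3 also differed outside the stem cells. It read 9.92, 9.71 and 9.64 in null_EB, against 11.33, 11.14 and 11.15 in null_EC, and the groups did not overlap. It was lower in null_EB, with a difference of -1.45 (limma adjusted p = 0.0255). Without any 1 array of these groups the adjusted p was 0.059 to 0.106 and it was not called.

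Around Pou5f1, 1 of 10 neighbours was called higher in ESC than in null_EB and 4 lower. The higher one, Psors1c2, differed by 0.25 (limma adjusted p = 0.0424) and was called in 11 of 20 alternatives, lost among others without ESC 2, ESC 3, null_EB 1, null_EB 2 or any null_EC array. The largest of these changes was in Cdsn, a skin adhesion protein, which was lower, with a difference of -1.05. Tcf19, the tested gene next to Pou5f1 at 1.95 kb, differed by 0.13 (limma adjusted p = 0.547). Around Sox2, where the nearest tested gene lay 569 kb away, 3 were higher and 1 lower, among them Fxr1, an RNA-binding protein, by 1.04 and Atp11b, a lipid flippase, by 0.91. The third, Dnajc19 (limma adjusted p = 0.0473), was called in 9 of 20 alternatives, lost among others without any ESC or null_EC array, null_EB 2 or null_EB 3. The 30 neighbours together gave 9 higher and 6 lower, or 15 of 30, where 44.8% of all genes were called.

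**Figure D5:**
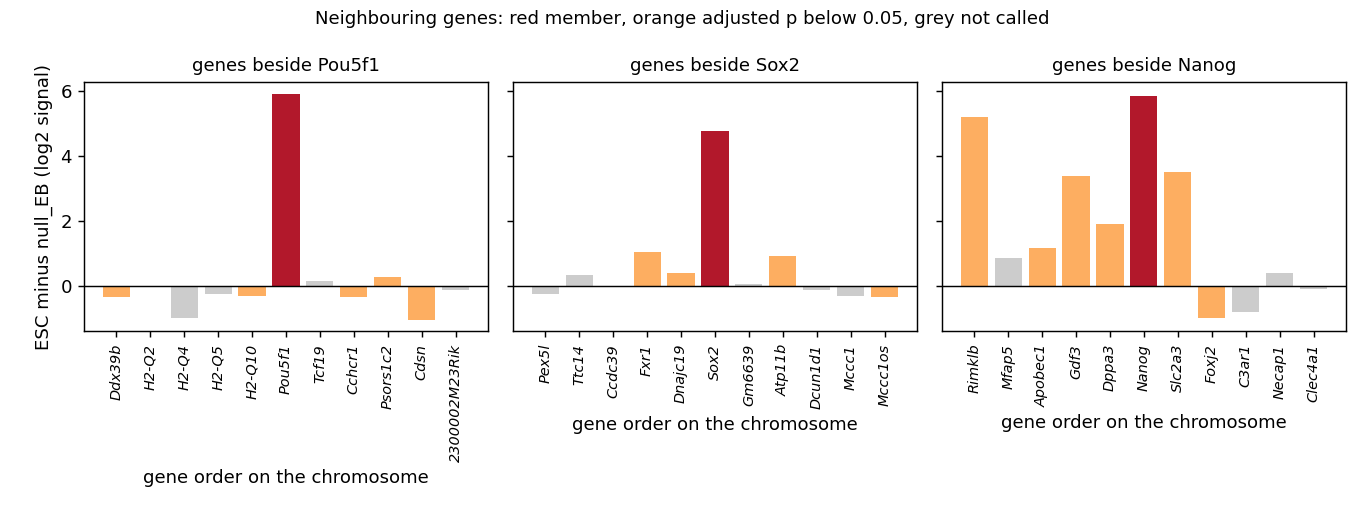
Difference of log2 signal in ESC against null_EB for the 5 nearest tested genes on each side of Pou5f1, Sox2 and Nanog, in chromosome order, with the core gene in red, called neighbours in orange and others in grey. Rimklb, Gdf3, Dppa3 and Slc2a3 stand out among the neighbours of Nanog at 5.19, 3.37, 1.88 and 3.50.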

How the data were processed

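RNA of 12 mouse samples was measured on whole-transcript arrays, 300 ng of RNA each. The deposited values are log2 signals that the authors made with Affymetrix Expression Console 1.2.1 and RMA, per the submitters' processing notes. A label protocol names a human array, but the probe set identifiers match the mouse platform, whose gene table was used. Of 35556 probe sets, 21789 name 1 gene, and the brightest per gene by mean over 12 arrays gave 19938 genes. No depth applies, and 3 arrays per group limit the precision.

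The R package limma 3.58.1 (R 4.3.3) fitted 1 model with 4 group means to the 12 arrays, moderated the variances and gave 6 comparisons. Within a comparison, Benjamini-Hochberg adjustment ran over all genes, and an adjusted p below 0.05 was called. Per gene list and comparison, the 3 called members that increased most and the 3 that decreased most could be named. The genes, lists and tests were chosen with earlier results of these data known. The fit was tested on simulated data. Alternatives were the 6 arrays alone, the fit without WT_EC, array weights, a housekeeping shift (11 genes), keeping genes that reached log2 6 on at least 3 arrays, every probe set by itself, the replicate block, trend and robust variances, and leaving out each array. Of the genes listed, 7 were not analysed here.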

Additional observations from a re-analysis of the deposited data

How the results depend on the processing

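With 3 arrays a group, a spread partly set by WT_EC, and core factors near the low end of the signal scale outside ESC, small changes among null_EB, null_EC and WT_EC could not be resolved. The 9 differences of Pou5f1, Sox2 and Nanog against ESC kept their call and direction in all alternatives, from 4.45 for Sox2 against null_EC to 5.96 for Pou5f1 against null_EB. Nanog in null_EB against null_EC was called at -0.26 with the 6 arrays alone (adjusted p = 0.00881) and without the 3 WT_EC arrays (adjusted p = 0.00585) and at -0.22 with array weights, while leaving out 1 array gave -0.29 to -0.23 (adjusted p = 0.0161 to 0.349), called without WT_EC 1. Pou5f1 in null_EC against WT_EC turned to 0.025 with array weights and ran from -0.19 to 0.10 on leaving out 1 array, and Nanog there ran from -0.0044 to 0.16. The cause was not tested.

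The count of genes called moved as follows. In ESC against null_EB, 8929 became 14866 with array weights. In ESC against WT_EC, 9394 became 6250 with the 6 arrays alone. In null_EB against null_EC, 1077 became 5464 with the 6 arrays alone, 8001 with array weights, 585 with the housekeeping shift, 5058 without the WT_EC arrays and 390 to 2676 on leaving out 1 array. In null_EB against WT_EC, 3697 became 870 with the 6 arrays alone, 2248 with the housekeeping shift and 2026 to 6496 on leaving out 1 array. In null_EC against WT_EC, 2615 became 588, 1671 and 1335 to 5435 under the same settings. The housekeeping shift moved the median of all genes in ESC against null_EB from -0.08 to -0.28 and the share of calls that were higher from 48.6% to 25.6%. Against null_EC that share moved from 47.7% to 24.8%, and against WT_EC from 53.9% to 29.4%. With the replicate block, Pou5f1 differed by 5.92 in ESC against null_EB (adjusted p = 2.19e-08), and no call of the 3 core factors changed. No pairing by replicate number was seen, though deviations from means of 3 arrays cannot exclude it. Those of same-numbered arrays correlated at -0.256 to 0.225, with 3 of 18 pairs over 0.1. Those of differently numbered arrays correlated at -0.262 to 0.221, with 13 of 36 over 0.1. The block ended the Mycn call in null_EB against null_EC. List counts among null_EB, null_EC and WT_EC moved with most settings: in null_EB against null_EC, array weights called 3 targets higher rather than 1 and 5 partners lower rather than 1.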

Other observations

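Germ cell genes, 4 of the 5 listed with signal above the median of all values in ESC, were also higher in the stem cell line. All 5 that were listed were called higher in ESC than in each other group. Of all genes, 21.8% were called higher than in null_EB, 22.9% than in null_EC and 25.4% than in WT_EC. Limma called none of the 5 among null_EB, null_EC and WT_EC, where 5.4% to 18.5% of all genes were called. An unadjusted p under 0.05 was found for 1 in null_EB against each endothelial group and for 0 in null_EC against WT_EC. Sycp3, a protein of the synaptonemal complex, read 10.29, 10.38 and 10.61 in ESC, against 4.41, 4.28 and 4.58 in null_EB, a difference of 6.00 (limma adjusted p = 2.16e-11). Mael, a piRNA pathway protein, differed by 4.39, Ddx4, the germ cell helicase VASA, by 4.07 and Dazl, a germ cell RNA-binding protein, by 2.20. Tex101, a sperm surface protein, had low signal in ESC as well, between 6.95 and 7.04, and differed by 0.28. Pou5f1-rs4, annotated as related to Pou5f1 and chosen after its values were seen, lay between 5.57 and 5.97 on all 12 arrays and was called in no comparison.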
